A study of Mus musculus with 4 samples.

Results

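The glycosyltransferases that build mucin-type O-glycans, together with the carbohydrate sulfotransferases that decorate glycan chains, were described in the surface epithelium and the crypts of the mouse colon, with and without dietary heme. Members were chosen by a rule on gene symbols, set with earlier results of these data known. It takes the Galnt, B3gnt, B3galt, B4galt, Gcnt, numbered Fut, St3gal, St6gal (with St6galnac), A4gnt, A4galt, C1galt1 and numbered Chst genes. Each had to have a probe set naming a single gene. This gave 81 of the 19938 genes measured. The rule takes whole families, so it also brings in enzymes of N-glycans, glycolipids and proteoglycans, only some of which are named as such below. Counts by class or step are therefore not counts of mucin enzymes alone. Heme is the iron-containing pigment of red meat. The mice were male C57BL/6, 11 weeks old, and all of them ate a Westernized feed for 14 days that supplied 40% of its energy as fat and was low in calcium. In the heme groups the feed also held 0.5 µmol of heme per g. Surface cells and crypt cells were cut out of the same frozen Swiss rolls of mid-colon by laser capture microdissection, and their RNA was pooled, so the 4 groups are the control surface (4 mice), control crypt (4 mice), heme surface (3 mice) and heme crypt (3 mice), each on 1 Affymetrix array. Within a diet, both compartments therefore come from the same animals.

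Mucin-type O-glycans start when a polypeptide GalNAc-transferase attaches N-acetylgalactosamine (GalNAc) to serine or threonine. Galactose added to it gives core 1, N-acetylglucosamine (GlcNAc) added in its place gives core 3, and a branching GlcNAc turns these into core 2 and core 4. The chains are then extended with galactose and GlcNAc and capped by fucose, sialic acid or sulfate. In the colon these glycans make up most of the mass of Muc2, the gel-forming mucin of the mucus layer. Core 3 structures are typical of the colon, and mice that lack core 1 or core 3 glycans have a thinner or more permeable mucus barrier.

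Values are log2 expression values, so a difference of 1 is a 2-fold difference. With 1 pool in each group there are no replicates, no test could be run, and the spread between mice is unknown. "Higher" and "lower" are used below of genes that differed at least 2-fold and were not dim on every array compared, with dim meaning under a floor of 5.75 (the median over genes and arrays). This is a rule of size. In pooled tissue, fewer cells of a type and less RNA per cell cannot be told apart. The median over all probe sets lay between 5.42 and 5.54 on the 4 arrays. To check the labelled compartments, marker genes were compared on the control diet. All 7 surface colonocyte markers were higher in the surface pool (median difference 4.51) and all 6 crypt base and progenitor markers were higher in the crypt pool (median surface-minus-crypt difference -2.70).

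Of the 81 members, 55 reached the floor on at least 1 array and 26 stayed below it on all 4. The members below the floor were Galnt9, Galnt13, Galnt14, Galnt16, Galnt17 and Galnt18 among the initiating enzymes, Gcnt7 among the branching enzymes, B3gnt4, B3gnt8, B3galt1, B3galt4 and B3galt6 among the extending enzymes, Fut7, Fut10, St3gal5, St6gal2, St6galnac1, St6galnac3 and St6galnac5 among the capping enzymes, and Chst1, Chst3, Chst5, Chst7, Chst8, Chst9 and Chst10 among the sulfotransferases. They include a pair known from intestinal mucin. St6galnac1, which makes sialyl-Tn, read 4.70 and 4.61 in control and heme surface cells and 4.72 and 5.40 in control and heme crypt cells. Chst5, an intestinal GlcNAc 6-O-sulfotransferase, read between 3.94 and 4.34. Galnt15 and B3galt2 reached the floor only in control crypts, and Chst11 only in heme surface cells. In all, 33 members passed the size rule in at least 1 of the 5 comparisons made.

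**Figure D1:**
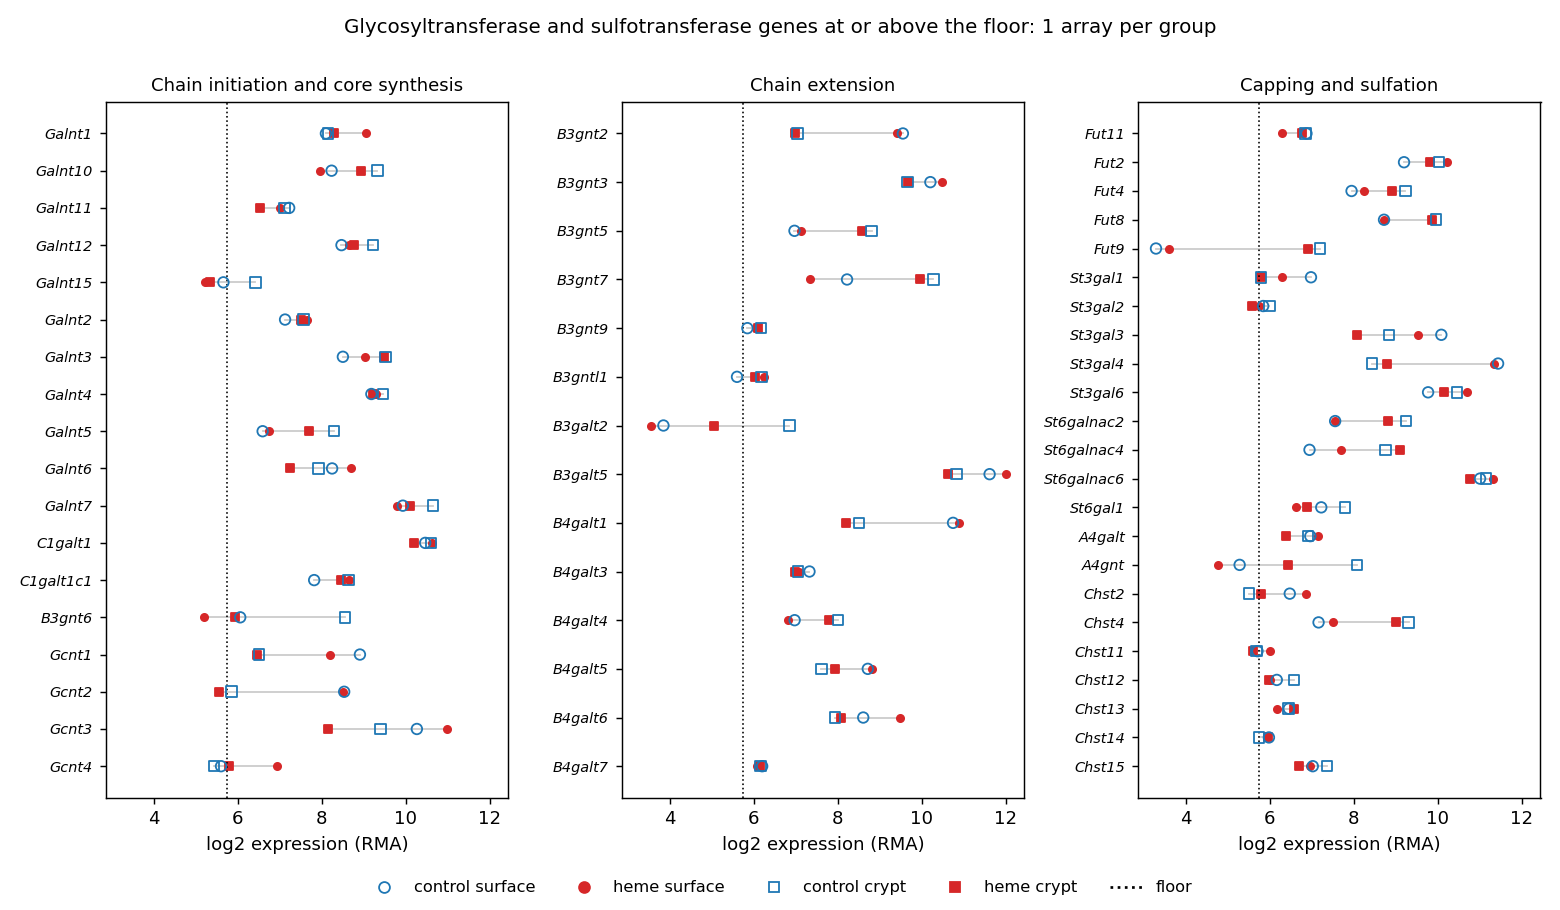
Log2 expression of each member at or above the floor of 5.75 on at least 1 array, grouped by step of glycan synthesis; each symbol is 1 array (1 pool), with circles for surface and squares for crypt, open blue for the control and filled red for the heme diet, and a dotted line at the floor. Symbols of a gene may be compared with each other but not with those of another gene, since probe sets differ in response; Fut9, B3gnt6, A4gnt and B3galt2 span the widest ranges over the 4 arrays.

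More of these enzymes differed between compartments than between diets, and the same held for all genes. With heme, 3.62% of all genes compared were higher and 2.01% lower in surface cells, and 1.78% and 1.19% in crypts. The larger shares between compartments are given below. On the control diet, 2 of 5 branching enzymes, 2 of 6 β1,4-galactosyltransferases and 3 of 6 α2,3-sialyltransferases were higher in surface cells. Higher in crypts were the core 3 synthase B3gnt6, 3 of 7 fucosyltransferases, 2 of 6 GalNAc sialyltransferases, 3 of 17 initiating enzymes and the sulfotransferase Chst4. Of 53 members that reached the floor in this comparison, 8 (15.1%) were higher in surface cells, against 12% of all 10864 genes so compared. The lower side held 15 members (28.3%), against 13.5% of all genes. Fut9, B3galt2 and A4gnt entered it with surface readings under the floor. Over all 81 members the median difference was -0.02, against 0.06 over all genes. Over the 51 members whose mean reached the floor it was -0.15, with 56.9% below 0, against -0.05 and 52.5% over all such genes.

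Among the 17 initiating enzymes none was higher in surface cells and 3 were lower. Galnt5 read 6.60 in control surface and 8.30 in control crypt cells, a 3.25-fold lower surface level. Galnt10, which prefers peptides that already carry GalNAc, was 2.12-fold lower at the surface (8.24 against 9.32). Galnt3 read 8.51 against 9.52, just past 2-fold. The initiating enzyme with the highest mean reading, Galnt7, also acts on partly glycosylated peptides and read 9.93 in surface and 10.65 in crypt cells. Galnt12, a GalNAc-transferase of the digestive tract, read 8.47 and 9.23.

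Core 3 synthase was lower at the surface on the control diet, while 2 of 5 branching enzymes, Gcnt1 and Gcnt2, were higher there. Of these, only Gcnt1 acts on the core. B3gnt6, the core 3 synthase, read 6.06 in control surface and 8.55 in control crypt cells, 5.63-fold lower at the surface. Gcnt1, the core 2 enzyme first known from leukocytes, read 8.91 against 6.51, which is 5.28-fold higher at the surface. Gcnt2, which places I branches on extended chains, read 8.54 against 5.86 and was 6.41-fold higher. The mucin-type branching enzyme Gcnt3, which can make core 2, core 4 and I branches, differed by 0.87 (10.27 against 9.40). Core 1 synthase C1galt1 read nearly the same in both compartments (10.47 and 10.60), and its chaperone C1galt1c1, known as Cosmc, read 7.82 and 8.63.

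Chain extension divided within families. Among the GlcNAc-transferases, B3gnt2, the main enzyme of poly-N-acetyllactosamine, was 5.69-fold higher in surface cells (9.55 against 7.04). B3gnt7, which extends sulfated chains, was 4.16-fold lower there (8.22 against 10.28). B3gnt5, the lactotriaosylceramide synthase of glycolipids, was 3.58-fold lower (6.97 against 8.81). The galactosyltransferases split in the same manner. B4galt1, a general N-acetyllactosamine synthase, was 4.71-fold higher at the surface (10.75 against 8.51). B4galt5, a lactosylceramide synthase, was 2.15-fold higher (8.72 against 7.61), and B4galt4, which favours sulfated GlcNAc, was 2.04-fold lower (6.98 against 8.00). B3galt2 read 3.85 in surface and 6.85 in crypt cells, a difference of -3.00. The surface value lies far under the floor and may be background, so no fold is given, and on a scale that draws low values together (log2 of the linear value plus 32) the difference was -1.67. B3galt5, which makes type 1 chains, and B3gnt3, which extends core 1, differed by 0.78 and 0.54.

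Capping enzymes lay on both sides. No fucosyltransferase of 7 was higher in surface cells and 3 were lower. Fut9, a maker of the Lewis x antigen, read 3.29 in control surface, under the floor, and 7.20 in control crypt cells, and Fut4, which shares that activity, read 7.95 and 9.23 (2.43-fold lower). Fut8, which adds the core fucose of N-glycans, was 2.35-fold lower (8.72 against 9.95). Of the 6 α2,3-sialyltransferases, 3 were higher in surface cells and none lower. St3gal4 read 11.44 against 8.44, an 8.00-fold difference, and St3gal3 read 10.09 against 8.84, a 2.37-fold difference. Both sialylate galactose at the end of lactosamine chains. St3gal1, which sialylates core 1, was 2.28-fold higher as the mean of its 2 probe sets, of which the brighter differed by 1.97 and the dimmer by 0.41. Of the 6 sialyltransferases that act on GalNAc, 2 were lower at the surface and none higher. St6galnac2 was 3.23-fold lower at the surface (7.56 against 9.25) and St6galnac4, the disialyl-T enzyme, was 3.50-fold lower (6.95 against 8.76). St6galnac6, which had the highest mean of the 6, read 11.01 in surface and 11.15 in crypt cells. A4gnt, which places the terminal α1,4-GlcNAc known from gastric gland mucins, read 5.28 in surface and 8.08 in crypt cells. A4galt, the other α1,4-transferase, had the higher mean of the pair and read 6.97 and 6.92.

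Sulfation was marked by Chst4, a GlcNAc 6-O-sulfotransferase, which read 7.16 in control surface and 9.31 in control crypt cells and was 4.42-fold lower at the surface. Chst2, of the same class, read 6.48 and 5.50. The 10 remaining sulfotransferases, most of which act on chondroitin or dermatan sulfate or on other glycans, held none past the rule, and their differences ran from -0.41 to 0.46. The brightest of them, Chst15, read 7.03 and 7.36. The deposited scaling matters for these directions. Centring each array on its 52 ribosomal protein genes moved the median surface-minus-crypt difference of all genes from 0.06 to 1.17, which puts 26 members higher and 5 lower (all genes 6656 and 167, against 1301 and 1464 as deposited), and it turned Galnt10, B4galt4 and Galnt3 to values just above 0. Fut9, B3galt2, A4gnt, B3gnt6 and Chst4 were the members that stayed lower by the rule.

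**Figure D2:**
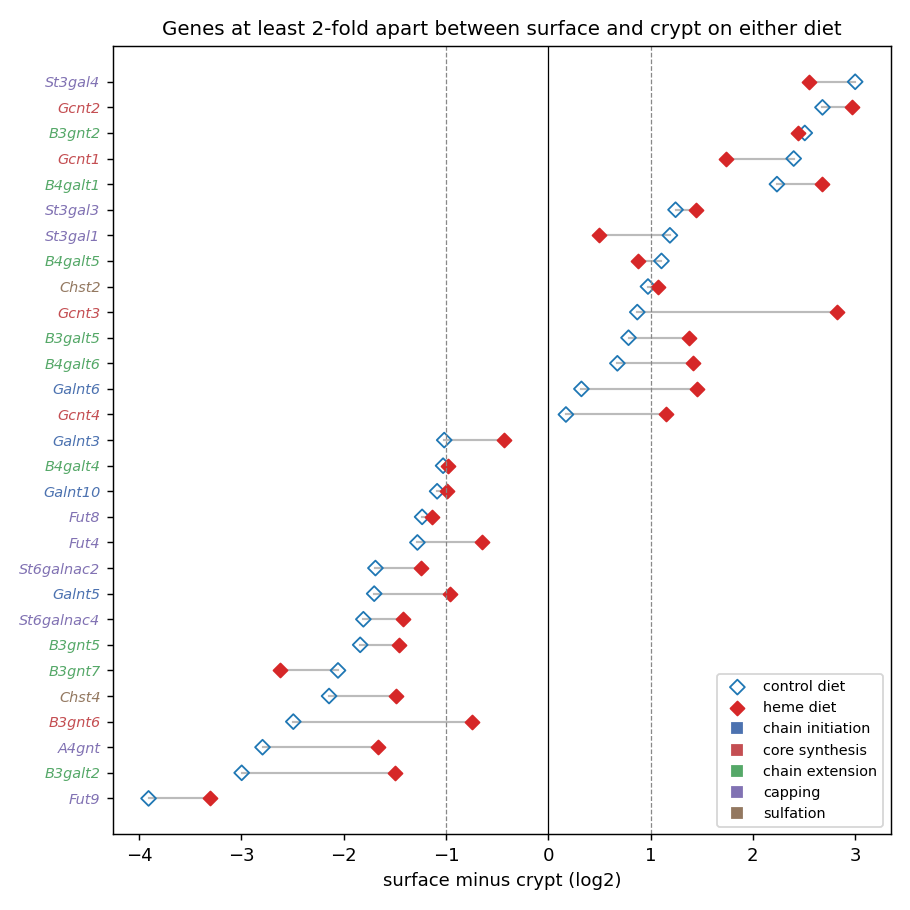
Surface-minus-crypt log2 difference (horizontal axis) of the members past the size rule on either diet, 1 row for each gene in the order of the control diet, with open symbols for the control and filled symbols for the heme diet, gene names coloured by step of synthesis and dashed lines at 2-fold. St3gal4, Gcnt2, B3gnt2, Gcnt1 and B4galt1 lie furthest to the surface side on control and Fut9 furthest to the crypt side; the symbols of Gcnt3 (0.87 and 2.83) and B3gnt6 (-2.49 and -0.74) are the widest apart between the diets.

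On the heme diet, 4 of 5 branching enzymes, 2 of 6 β1,4-galactosyltransferases and 2 of 6 α2,3-sialyltransferases were higher at the surface, and B3gnt6 was not among the members lower there. Of 52 members compared, 12 (23.1%) were higher in surface cells, against 15.3% of all 10698 genes, and 8 (15.4%) were lower, against 16.5% of all genes. The share of lower members was thus near that of all genes. The members with the widest surface excess were Gcnt2 (8.52 against 5.55, which is under the floor, a difference of 2.97) and Gcnt3 (10.99 against 8.16, 7.09-fold). B4galt1 followed at 6.40-fold, St3gal4 at 5.86-fold, B3gnt2 at 5.43-fold and Gcnt1 at 3.33-fold. St3gal3 was 2.73-fold, Galnt6 2.75-fold, B4galt6 2.66-fold, B3galt5 2.59-fold, Gcnt4 2.22-fold and Chst2 2.10-fold higher. Gcnt4 and Chst2 missed 2-fold on the scale that draws low values together.

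The members lower in heme surface than in heme crypt cells were B3gnt7 (7.34 against 9.97, 6.17-fold), Chst4 (7.52 against 9.01, 2.81-fold), Fut9 and A4gnt. B3gnt5 was 2.75-fold, St6galnac4 2.67-fold, St6galnac2 2.37-fold and Fut8 2.20-fold lower. Fut9 (3.61 against 6.92) and A4gnt (4.77 against 6.44) had surface readings under the floor, so no fold is given, and they differed by -3.31 and -1.66. On the compressed scale Fut9 differed by -1.79 and A4gnt just missed 2-fold. B3gnt6 had a surface-minus-crypt difference of -0.74 on heme and of -2.49 on control. B3galt2 differed by -1.50 on heme with both arrays under the floor. Ribosomal protein centring moved the median of all genes from 0.00 to 1.11 here and put 37 members higher and 2 lower, with 6810 and 350 of all genes against 1637 and 1763 as deposited.

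In crypt cells, the heme pool read lower than the control pool for core 3 synthase and for several chain-modifying enzymes, and no member was higher. Of 54 members compared, 5 (9.26%) were lower, against 1.19% of all 10491 genes, and 0 were higher, against 1.78% of all genes. Among the 5 lower ones, B3galt2 and Galnt15 reached the floor only on the control crypt array. They thus entered the count through the array where they were high. Over all 81 members, 60 (74.1%) lay below 0 in heme crypts, against 48% of the 19938 genes, and the median was -0.20 against 0.01. Among the 51 members whose mean over the arrays reached the floor, 40 (78.4%) lay below 0, against 48.3% of all such genes.

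B3gnt6 read 8.55 in the control crypt pool and 5.94 in the heme crypt pool, and 6.06 and 5.19 in the control and heme surface pools. The control crypt array stood alone as the high one and the heme crypt array read like the surface arrays. Its heme crypt level was 6.13-fold lower, the third lowest difference of the 10491 genes compared. B3gnt6 commits GalNAc to core 3.

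B3galt2, a β1,3-galactosyltransferase, read 3.85 in control surface, 3.55 in heme surface, 6.85 in control crypt and 5.05 in heme crypt cells. It ranked 10 from the lowest and its crypt difference was -1.80, with the heme reading under the floor (-1.18 on the compressed scale). A4gnt read 5.28, 4.77, 8.08 and 6.44 in the same order, which made it 3.12-fold lower in heme crypts and 14 from the lowest. For these genes too the control crypt array held the single highest value. Because heme against control in crypts and surface against crypt on control share the control crypt array, a high or low reading of that array would enter both comparisons.

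Gcnt3 had another pattern. It read 10.27 in control surface, 10.99 in heme surface, 9.40 in control crypt and 8.16 in heme crypt cells, so it was 2.35-fold lower in heme crypts while its surface readings were the higher pair on both diets. Galnt15, a GalNAc-transferase with readings close to the floor, read 5.66, 5.22, 6.42 and 5.33 and differed by -1.09 in heme crypts. This was the member nearest the threshold, and it missed 2-fold at -0.71 on a scale that draws low values together and at -0.90 after ribosomal protein centring. Just outside the rule lay St6gal1, which sialylates N-glycans (7.80 against 6.89, -0.91), and St3gal3 (8.84 against 8.08, -0.76).

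By class, the crypt differences without the size rule were mostly small and negative. For the GalNAc-transferases 14 of 17 lay below 0 with a median of -0.29, and for the fucosyltransferases all 7 lay below 0 but within -0.33 and -0.08. Galnt6 (-0.68), Galnt11 (-0.60), Galnt5 (-0.59), Galnt7 (-0.55) and Galnt12 (-0.47) were the lower ones among initiating enzymes at the floor. C1galt1 differed by -0.40 and C1galt1c1 by -0.19. The branching enzymes other than Gcnt3 differed by -0.31 (Gcnt2), -0.04 (Gcnt1) and 0.35 (Gcnt4). The β1,4-galactosyltransferases stayed between -0.31 and 0.32, and the 14 sulfotransferases between -0.66 and 0.29 with a median of -0.06. Chst4 itself read 9.31 and 9.01. Ribosomal protein centring raised the median of all genes in this comparison by about the same amount as that of the members, to 0.21 and 0.00, and then 41 of 81 members lay below 0, with the fucosyltransferases on both sides of it. B3gnt6, B3galt2, A4gnt and Gcnt3 stayed past 2-fold under that centring.

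Other cell types also differed between the crypt pools. Goblet cell markers lay below 0 in heme crypts for 7 of 8 genes (median -0.48, summed level 14.57 in control and 14.07 in heme crypts), and all 8 were above the floor. Muc2 itself read 13.54 in control and 12.96 in heme crypts. All 10 smooth muscle and fibroblast markers lay below 0 (median -0.72, summed level 12.46 and 11.60), and 3 of them, Lum, Vim and Dcn, were lower by the size rule. All 5 endothelial markers lay below 0 as well (median -0.68, summed 9.46 and 8.71; Cd34 was lower by the rule). So did 6 of 7 leukocyte markers (median -0.61, summed 9.98 and 9.22), of which H2-Aa and Csf1r were lower by the rule and Cd79a and Itgam stayed below the floor on all arrays. Deep crypt secretory markers lay below 0 for 5 of 5 (median -0.45, summed 13.17 and 12.85), with Agr2 and Spink4 shared with the goblet markers. Of the surface colonocyte markers 4 of 7 were higher, with a median of 1.22 (summed 12.71 and 12.93). Of 6 crypt base and progenitor markers 5 lay below 0, with a median of -0.38 (summed 11.53 and 11.44). They ran from -1.07 to 0.89, and only Lgr5 (-1.07) was lower by the rule. The part of these cell types in the values of B3gnt6, A4gnt, B3galt2, Gcnt3 and Galnt15 was not tested.

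Promoter sequences were available for 62 of the 81 members, and for 4 of the 7 members past the rule for heme against control, which are shown as the DNA next to genes that differed with diet. B3gnt6, Gcnt3 and Fut2 are the other 3. They are RefSeq sequences of build GRCm38.p6, the 250 bases before the annotated start, 5′ to 3′ on the plus strand, which is the strand of all of these genes. The A4gnt promoter lies at chr9:99612252-99612501, that of B3galt2 at chr1:143640447-143640696 and that of Galnt15 at chr14:32028853-32029102. Gcnt4, which was higher in heme surface cells, has a pair of annotated starts, with promoters at chr13:96924094-96924343 and chr13:96924463-96924712. Capitals mark a match to a searched motif, and no capitals means no match in that window.
A4gnt: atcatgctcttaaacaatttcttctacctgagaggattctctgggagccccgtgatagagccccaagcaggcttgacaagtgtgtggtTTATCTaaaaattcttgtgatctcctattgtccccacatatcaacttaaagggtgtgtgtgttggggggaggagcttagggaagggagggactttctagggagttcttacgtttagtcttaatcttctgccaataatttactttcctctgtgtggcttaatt
B3galt2: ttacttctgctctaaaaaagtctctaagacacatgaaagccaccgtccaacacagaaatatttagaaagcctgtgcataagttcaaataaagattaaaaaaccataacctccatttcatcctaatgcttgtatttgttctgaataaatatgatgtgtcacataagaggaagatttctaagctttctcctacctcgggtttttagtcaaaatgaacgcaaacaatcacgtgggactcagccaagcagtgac
Galnt15: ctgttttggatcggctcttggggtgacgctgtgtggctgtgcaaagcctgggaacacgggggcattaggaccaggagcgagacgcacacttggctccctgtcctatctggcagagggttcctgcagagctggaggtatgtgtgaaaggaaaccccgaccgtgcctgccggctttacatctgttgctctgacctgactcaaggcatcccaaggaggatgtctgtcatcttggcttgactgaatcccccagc
Gcnt4, upstream start: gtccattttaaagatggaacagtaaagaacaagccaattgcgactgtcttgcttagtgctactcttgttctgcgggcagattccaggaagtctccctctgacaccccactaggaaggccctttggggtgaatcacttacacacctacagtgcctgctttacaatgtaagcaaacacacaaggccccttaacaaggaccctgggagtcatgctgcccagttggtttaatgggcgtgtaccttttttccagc
Gcnt4, downstream start: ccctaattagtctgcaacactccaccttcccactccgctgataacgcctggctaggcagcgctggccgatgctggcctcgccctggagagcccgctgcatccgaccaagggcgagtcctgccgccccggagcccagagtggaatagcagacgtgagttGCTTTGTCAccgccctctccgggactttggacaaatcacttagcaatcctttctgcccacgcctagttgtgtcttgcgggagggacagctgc

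Both strands were searched for motifs of known intestinal or stress factors. CDX factors of the intestine bind the core CATAAA. The motif of the GATA family was searched as AGATAA, and that of HNF4, a nuclear receptor of the gut epithelium, as AAAGTCCA. For the antioxidant response element the core TGACNNNGC was used, and for the promoter box of that name the letters TATAAA. The A4gnt promoter held the GATA core on the minus strand, at -162 to -157 from the start, a motif found in 9.99% of all 32851 promoters in the table. The promoter at the downstream start of Gcnt4 held the antioxidant response element core on the minus strand, at -92 to -84, and that core occurs in 10.2% of all promoters. Among the 83 promoters of members, 7.23% held the GATA core, 9.64% the antioxidant core, 8.43% the CDX core (10.8% of all), 1.2% the HNF4 motif (1.01% of all) and 1.2% the TATAAA box (12.4% of all). GC content ran from 36.8% in the B3galt2 window to 61.2% in the window at the downstream start of Gcnt4.

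**Figure D3:**
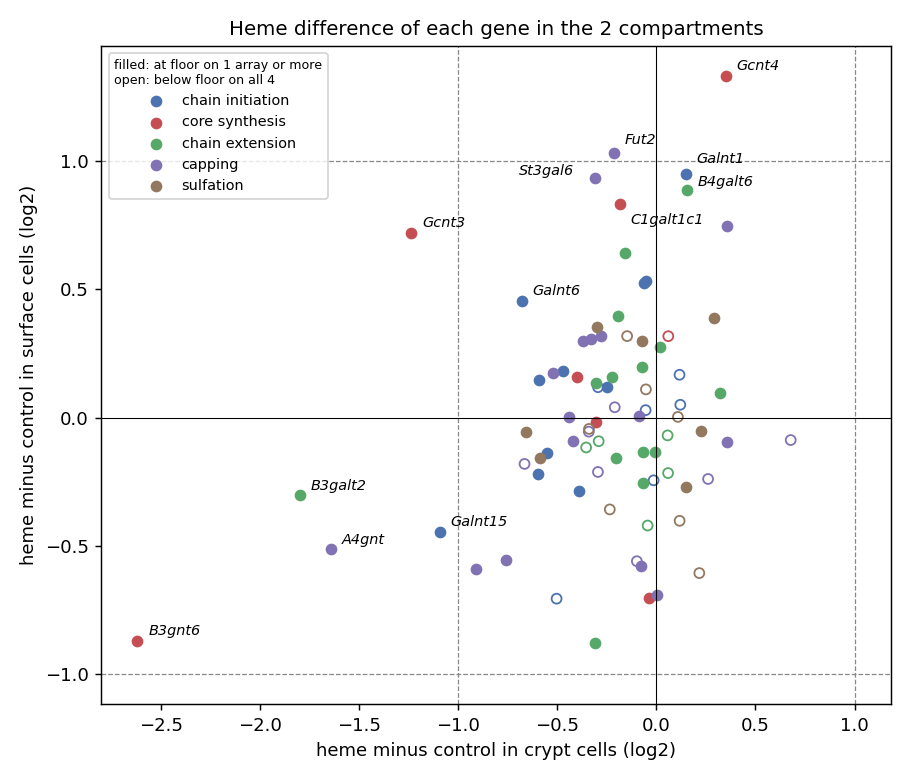
Heme-minus-control log2 difference in crypt cells (horizontal axis) and in surface cells (vertical axis) for the 81 members, coloured by step of synthesis; filled symbols reached the floor on at least 1 array and dashed lines mark 2-fold. B3gnt6, B3galt2, A4gnt, Gcnt3 and Galnt15 lie left of the crypt line and Gcnt4 and Fut2 above the surface line, with Gcnt3 on opposite sides of 0 in the 2 compartments.

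In surface cells, heme pools differed from control in few members, and upward. Of 51 members compared, 2 (3.92%) were higher, near the 3.62% of all 10282 genes, and 0 were lower, against 2.01% of all genes. The median over all 81 members was -0.02, against -0.04 over all genes, with 41 members below 0. These counts do not set the module apart from other genes in surface cells.

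Gcnt4, which can make core 2 branches, read 5.61 in control surface and 6.94 in heme surface cells, a difference of 1.33, and 5.43 and 5.78 in control and heme crypts. Only the heme surface array stood clearly above the floor. Fut2, the α1,2-fucosyltransferase that makes the H antigen on intestinal mucin, read 9.20 in control surface, 10.23 in heme surface, 10.03 in control crypt and 9.81 in heme crypt cells. Its control surface array was the low one, and heme was 2.04-fold higher at the surface. Fut2 lay just inside the threshold and dropped to 0.91 after cyclic loess normalization, and on the scale that draws low values together Fut2 (0.99) and Gcnt4 (0.94) both missed it.

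Just outside the rule lay enzymes of several steps. Galnt1, a broadly expressed initiating enzyme, read 8.10 in control and 9.05 in heme surface cells (0.95), St3gal6 read 9.77 and 10.70 (0.93), and the lactosylceramide synthase B4galt6 read 8.61 and 9.50 (0.89). C1galt1c1 read 7.82 and 8.65 (0.83), St6galnac4 6.95 and 7.69 (0.75), and Gcnt3 10.27 and 10.99 (0.72). Among members at the floor, the lowest differences were those of B3gnt7 (8.22 against 7.34, -0.88) and B3gnt6 (6.06 against 5.19, -0.87), followed by Gcnt1 at -0.70 and St3gal1 at -0.69. The brighter St3gal1 probe set alone differed by -1.17 and the dimmer by -0.21. Of the initiating enzymes 11 of 17 lay above 0 with a median of 0.12, and of the fucosyltransferases 5 of 7 with a median of 0.04. Smooth muscle and fibroblast markers lay below 0 for 9 of 10 in surface cells (median -0.53, summed level 11.96 in control and 11.47 in heme), goblet markers had a median of -0.02 (summed 14.99 and 14.88) and tuft cell markers were lower for 2 of 4, Dclk1 and Trpm5, with Pou2f3 below the floor on all arrays (summed 8.65 and 7.93). Of 5 deep crypt secretory markers Reg4 (1.23) and Spink4 (1.56) were higher and Kit (-1.03) lower (summed 10.57 and 11.06). Of 5 enteroendocrine markers Gcg (1.54) and Insl5 (1.03) were higher and Chga (-1.19) lower (summed 10.70 and 11.03). Their part in the surface values was not tested.

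Setting the compartments against each other, the heme difference was more positive at the surface than in crypts for most of these enzymes. The surface difference minus the crypt difference was at least 2-fold on the higher side for 8 of 55 members (14.5%), against 3.29% of all 11147 genes. On the lower side it was so for 0, against 2.17% of all genes. Among the 8, B3galt2 reached the floor only on the control crypt array. Over all 81 members 57 (70.4%) lay above 0, against 44.6% of all genes, with a median of 0.29 against -0.05. Among the 51 members whose mean reached the floor, 40 (78.4%) lay above 0 and the median was 0.41, against -0.02 over all such genes. All 4 arrays enter this measure, so it repeats the crypt and surface differences given above and is not further evidence of them.

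The 8 members came from 4 of the 5 steps. In core synthesis, Gcnt3 had the largest value (1.96, or 3.88-fold), made of 0.72 at the surface and -1.24 in crypts. B3gnt6 (1.75, or 3.36-fold) lay below 0 with heme in both compartments, at -0.87 and -2.62. C1galt1c1 had 0.83 and -0.19, a difference of 1.02. B3galt2, of chain extension (1.49, from -0.30 and -1.80), and A4gnt, of capping (1.13, from -0.51 and -1.64), also lay below 0 in both. Surface readings of B3galt2 and A4gnt were under the floor on both diets, so their surface differences may be background. In initiation, Galnt6 read 8.25 and 8.70 in control and heme surface cells and 7.93 and 7.25 in control and heme crypts, a difference of 1.13. In capping, Fut2 had 1.03 and -0.21 (1.24). St3gal6, a sialyltransferase of lactosamine chains, read 10.46 in control and 10.15 in heme crypts, which with 0.93 at the surface also gave 1.24. On the scale that draws low values together C1galt1c1 (0.92) and Galnt6 (just under 1) missed 2-fold, as did C1galt1c1 after cyclic loess (0.96). None of the 14 sulfotransferases passed. Sulfation values ran from -0.82 to 0.65, with Chst4 at the upper end.

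Genes for the substrates of these enzymes and for their sugar and sulfate donors were set beside them. Of 14 genes of mucins and mucin-like proteins, 8 reached the floor, with Emcn, Cd24a and Podxl among them. None of the 14 passed the rule in crypts (median -0.24), and at the surface only the transmembrane mucin Muc1 was lower (6.76 against 5.04). Muc2 read 13.12 and 12.90 in control and heme surface cells. The transmembrane mucins differed by -0.24 at the surface and -0.09 in crypts for Muc3, by 0.19 and -0.37 for Muc13, and by 0.52 and -0.45 for Muc4. Among 17 genes of the mucus layer and goblet secretion, Spink4 was higher at the surface by 1.56. In crypts none passed, but 14 of 17 lay below 0 with a median of -0.48, the lowest being Tpsg1 (-0.94), Creb3l4 (-0.86), Clca1 (-0.82) and the goblet cell transcription factor Spdef (-0.76). The 8 goblet markers given above are all among these 17, as are Agr2, Spink4 and Retnlb of the deep crypt secretory markers. These counts are thus not separate observations.

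In the lists of nucleotide sugar synthesis and of donor transport, most genes lay above 0 at the heme surface. Those that supply sulfate lay on both sides of 0. Of all genes 43.5% lay above 0 there, or 48.7% of those whose mean over the arrays reached the floor. By the size rule 3.62% of all genes compared were higher and 2.01% lower. Among 25 genes of nucleotide sugar synthesis, 19 lay above 0 with a median of 0.27, and 2 were higher. Gmds, the first enzyme of GDP-fucose synthesis, read 9.17 in control surface, 10.67 in heme surface, 10.95 in control crypt and 10.77 in heme crypt cells. Its control surface array was the low one, as for Fut2, which uses GDP-fucose. Ugp2, which makes UDP-glucose, was higher by 1.38. Among 22 genes of Golgi donor transport and sulfate donor synthesis, 15 lay above 0, the median was 0.26 and 3 were higher. These were Bpnt1 (1.35), which clears the by-product of sulfation, and Slc35d1 (1.33) and Slc35b1 (1.02), both nucleotide sugar transporter family members. The sulfate transporter Slc13a1 was the lower one, at 7.95 in control and 4.62 in heme surface cells. The sulfate donor synthases Papss1 (-0.53) and Papss2 (-0.13) also lay below 0 there. Slc26a2 (0.25), a sulfate transporter, and Slc35b2 (0.05) and Slc35b3 (0.39), of sulfate donor transport, lay above 0. In crypts neither list held a gene past the rule, and the medians were -0.06 and 0.14.

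**Figure D4:**
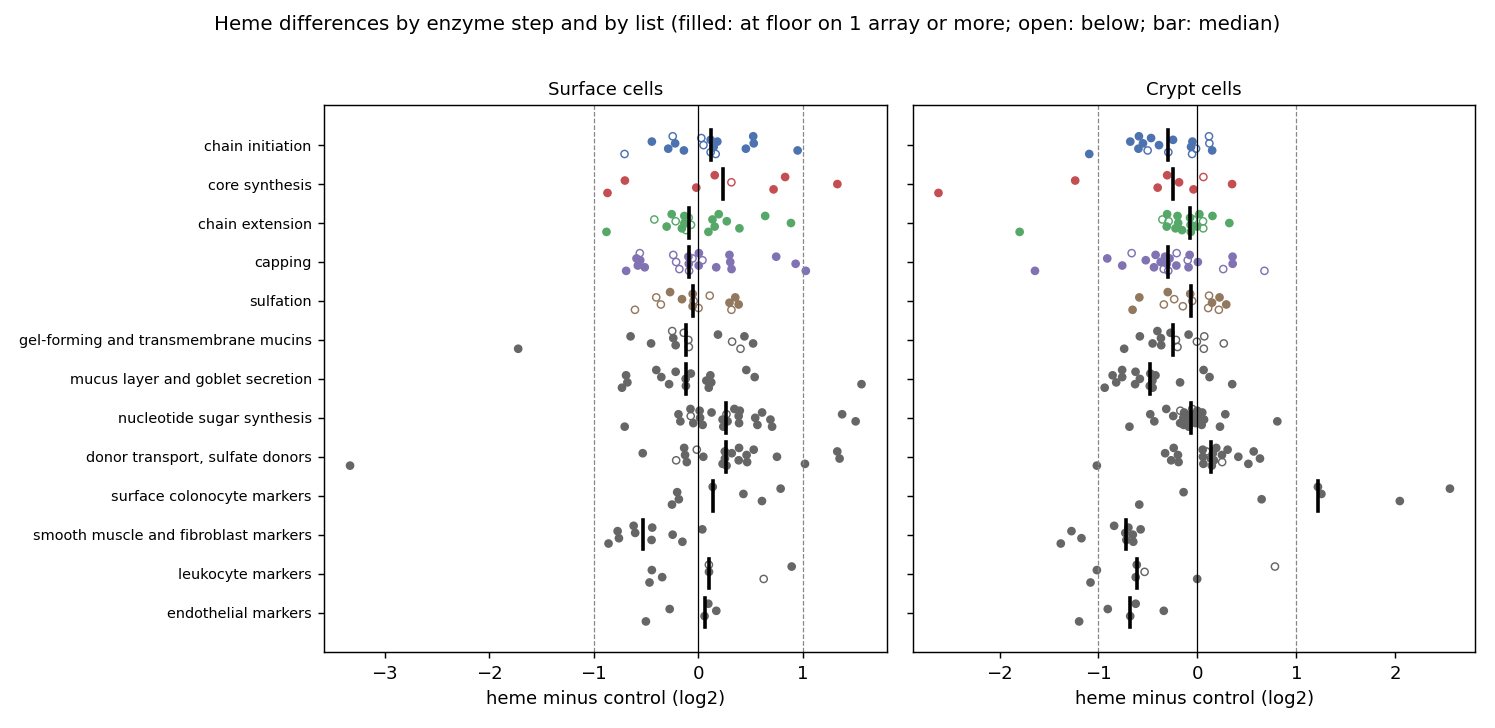
Heme-minus-control log2 differences in surface cells (left panel) and crypt cells (right panel) for the members by step of synthesis (coloured) and for related pathway and marker lists (grey); each symbol is 1 gene, filled where it reached the floor on at least 1 array, black bars are medians over all genes of a row and dashed lines mark 2-fold. In crypts B3gnt6 (core synthesis), B3galt2 (chain extension) and A4gnt (capping) lie furthest to the left of the members, and the stromal, leukocyte and endothelial rows lie mostly left of 0.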

How the data were processed

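RNA from 4 pools of laser-captured colon cells was labelled and hybridised to Affymetrix arrays, per the labels' protocols. The deposited values are log2 expression per probe set, made by the authors with RMA (background correction, quantile normalization and probe summary) per the submitters' processing notes. Its version is not given in the sources used here, and neither is the set of arrays it was run on. No build is named for the values.

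Of 35556 probe sets, 21789 had 1 gene symbol in the platform annotation, 1621 several and 12146 none. Symbols were updated through gene identifiers to the GRCm38.p6 gene table (21698 matched, 0 of the members renamed), and probe sets of a gene were averaged. Of the members, 79 had 1 probe set and 2 (Fut11 and St3gal1) had 2; B4galt2, Fut1, Fut4-ps1 and Galnt6os match the symbol rule but had no single-symbol probe set. Differences were taken between log2 values, with the size rule given above, and described beside all genes; with 1 array in each group the number of arrays limits the precision and no test was run. The members, their classes and the 16 gene lists (7 pathway, 9 cell type) were chosen with earlier results of these data known. Members were named where they passed the size rule in any comparison, had the highest mean in their class, or are known enzymes of intestinal mucin; list genes were named by size of difference, up to 4 a list, with the main mucins. Further members were named after their values were seen, as lying just outside the rule or at an end of their class. Further sulfate genes of the donor list were also named after their values were seen.

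Alternatives were no floor, log2 of the linear value plus 32, the brightest probe set, ribosomal protein centring, cyclic loess and symbols without the update. The rule was run on simulated arrays with planted changes larger than its threshold, for all comparisons but the difference of heme effects. Such a run cannot show how it treats changes near the threshold or the spread between mice. Python 3.11.15, pandas 2.3.3, numpy 2.4.6, matplotlib 3.10.9, R 4.3.3 and limma 3.58.1 were used.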

Additional observations from a re-analysis of the deposited data

Results flagged for a closer look

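For 5 members the heme difference was positive in surface cells and negative in crypt cells, and the gap between the compartments was at least 2-fold. The share of all genes that met both conditions was not counted, so this number has no background. The gap was 1.96 on the log2 scale for Gcnt3, 1.24 for Fut2, 1.24 for St3gal6, 1.13 for Galnt6 and 1.02 for C1galt1c1. With 1 array in each group, the difference between the compartments was not tested, and for Fut2, St3gal6 and C1galt1c1 the crypt part of the gap was at most 0.31 in size. With ribosomal protein centring the crypt value was 0.01 for C1galt1c1 and -0.02 for Fut2, so neither kept an opposite sign of any size. St3gal6, Galnt6 (-0.48) and Gcnt3 (-1.04) stayed below 0 in crypts. The gap of C1galt1c1 was 0.92 after log2 of the linear value plus 32 and 0.96 after cyclic loess, and that of Galnt6 was just under 2-fold on the former.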

How the results depend on the processing

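The counts of members past the size rule were within 1.5 times of those reported without a floor and without the symbol update. For heme against control in surface cells, 0 members were higher after log2 of the linear value plus 32, 6 after ribosomal protein centring and 1 after cyclic loess, and 1 was lower with the brightest probe set, St3gal1. For surface against crypt, ribosomal protein centring gave 26 higher and 5 lower on the control diet and 37 higher and 2 lower on the heme diet, and on the control diet it turned B4galt4 to 0.08, Galnt10 to 0.02 and Galnt3 to 0.09. The same centring moved the median of all genes to 0.15 for heme in surface cells and to 0.21 in crypts, with 604 higher and 130 lower of all genes at the surface and 299 and 53 in crypts, against 372 and 207, and 187 and 125, as deposited. For heme in crypts, B3gnt6 ranged over the alternatives from -2.62 to -2.13, B3galt2 from -1.80 to -1.18, A4gnt from -1.64 to -1.35 and Gcnt3 from -1.24 to -1.04. The added value of 32 shrinks differences of dim genes: for surface against crypt on control, Fut9 became -2.10 and B3galt2 -1.67. No replicate could be left out with 1 array in each group, and no paired analysis was possible because each diet and compartment has a single pool. Readings under the floor may be background, since no detection call was used.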

Other observations

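Enzymes of glycan ends outside the gene families above, 25 genes of which 14 reached the floor, held the widest surface differences with heme among the glycosyltransferases named here. Abo, the blood group A and B transferase that acts on the H antigen, read 6.11 in control surface, 8.06 in heme surface, 6.43 in control crypt and 5.99 in heme crypt cells, so only the heme surface array was high (1.96). B4galnt2, which makes the Sda antigen of the colon, read 11.54, 10.13, 10.63 and 10.03 in the same order and was lower at the heme surface by 1.41. In crypts none of the 25 passed the size rule (median -0.09).

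Among N-glycan mannosidases and GlcNAc-transferases (14 genes) and glycan-cleaving hydrolases (16 genes), none passed the size rule for heme in either compartment, with medians of -0.06 and -0.01 at the surface and -0.02 and -0.14 in crypts. Between compartments on the control diet, 2 genes of each list passed. Surface cells exceeded crypt cells by 2.84 for Mgat4c and 1.71 for Mgat4a, which belong to a family that branches N-glycans, and by 2.73 for the sialidase Neu1, and Gusb, a glucuronidase, differed by -1.20.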
